A study of Mus musculus with 24 samples.

Results

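The collagen chain genes encode the alpha chains of the collagens, the main structural proteins of the extracellular matrix. They were taken as every protein-coding gene whose GENCODE symbol reads Col, a number, the letter a and a number, matched through its gene identifier without the version. Of 53677 gene identifiers counted in liver, 44 met this rule, and 30 of the 44 had enough counts to be among the 14533 genes tested. RNA was sequenced from the livers of 24 mice, 1 library each, in a series on the genetic determinants of TCF7L2 binding. The groups were inbred 129S1/SvImJ mice on high-fat diet (HFD, n = 6) and on chow (n = 5), and inbred C57BL/6J mice on HFD (n = 7) and on chow (n = 6). The labels name no transgene or drug for any group, and mouse age, diet make-up and feeding time are not given in them. The comparisons were HFD with chow in each strain, 129S1/SvImJ with C57BL/6J on each diet, and the diet effect of one strain with that of the other.

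Collagen chains wind into helical trimers, and the genes fall into classes by what those trimers build. Collagens I, III, V and XI form striated fibrils, collagen IV forms the network of basement membranes, collagen VI forms beaded filaments, and the FACIT collagens (fibril-associated, with interrupted helices) sit on fibril surfaces. Collagens XV and XVIII, the multiplexins, carry glycan chains in basement membranes, and collagens XIII, XVII, XXIII and XXV span the cell membrane. In liver, stellate cells and portal fibroblasts are known for fibrillar collagen, which builds up in fibrosis, and hepatocytes are known to make collagen XVIII, the precursor of endostatin.

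Promoter windows are shown for 4 chains on which the results turn. Col1a2 and Col3a1 are fibrillar chains that were higher on HFD in C57BL/6J, and Col4a1 and Col4a2 are neighbours whose levels varied together among mice. The sequences are from RefSeq on GRCm38.p6 (mm10), from 250 bases before to 50 bases after the gene's start in RefSeq, 5′ to 3′ on the gene's strand. For Col1a2 the RefSeq start is base 4505618, inside the gene as annotated by GENCODE, so its window does not hold the GENCODE start. Capitals mark motifs found in either orientation. The TATA box, which positions the polymerase, was searched as TATAAA. The box bound by the factor NF-Y was searched as CCAAT. The GC box, bound by Sp factors, was searched as GGGCGG.
Col1a2: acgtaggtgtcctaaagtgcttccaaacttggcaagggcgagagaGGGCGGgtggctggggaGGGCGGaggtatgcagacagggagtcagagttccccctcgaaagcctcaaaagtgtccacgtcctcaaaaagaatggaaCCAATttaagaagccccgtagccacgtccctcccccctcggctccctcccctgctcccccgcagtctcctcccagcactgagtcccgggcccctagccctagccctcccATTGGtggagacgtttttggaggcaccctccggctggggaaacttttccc
Col3a1: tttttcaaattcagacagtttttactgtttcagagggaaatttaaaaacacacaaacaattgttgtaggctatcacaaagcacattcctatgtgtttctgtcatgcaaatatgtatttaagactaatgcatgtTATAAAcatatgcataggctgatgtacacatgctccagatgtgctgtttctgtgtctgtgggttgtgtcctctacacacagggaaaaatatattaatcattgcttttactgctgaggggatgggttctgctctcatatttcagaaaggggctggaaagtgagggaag
Col4a1: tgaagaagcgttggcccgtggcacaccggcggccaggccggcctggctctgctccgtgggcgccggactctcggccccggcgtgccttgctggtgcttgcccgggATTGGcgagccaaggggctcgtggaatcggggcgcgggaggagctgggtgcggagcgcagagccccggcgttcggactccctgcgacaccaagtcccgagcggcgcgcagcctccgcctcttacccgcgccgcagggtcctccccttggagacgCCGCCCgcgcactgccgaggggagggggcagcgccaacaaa
Col4a2: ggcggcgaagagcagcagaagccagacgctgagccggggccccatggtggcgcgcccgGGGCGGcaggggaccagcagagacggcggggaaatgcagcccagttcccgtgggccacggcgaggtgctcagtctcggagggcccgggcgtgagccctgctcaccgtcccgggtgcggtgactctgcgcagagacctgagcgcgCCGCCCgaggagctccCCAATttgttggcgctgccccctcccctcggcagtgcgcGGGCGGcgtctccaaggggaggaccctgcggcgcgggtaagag
The windows lie at chr6:4505368-4505667 (plus strand) for Col1a2, chr1:45311288-45311587 (plus) for Col3a1, chr8:11312777-11313076 (minus) for Col4a1 and chr8:11312555-11312854 (plus) for Col4a2. The Col4a1 and Col4a2 genes point away from each other with start sites 21 bases apart, so their windows share 78 bases. The Col3a1 window held 1 match to TATAAA, near its middle and well before the start, and neither other motif. The Col1a2 window held 2 CCAAT and 2 GC boxes, the Col4a1 window 1 and 1, and the Col4a2 window 1 and 3, without a TATA box in any of these windows. The GC box of Col4a1 is the same site as 1 of those of Col4a2, in the shared bases. RefSeq windows matched 35 of the 44 chains (38 windows). GC boxes were in 60.5% of these windows and in 35.7% of all 32851 promoter windows, CCAAT in 34.2% and 37.4%, and the TATA box in 13.2% and 13.6%. These matches describe letters, and motifs on both strands were counted without regard to overlap.

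Libraries held 6707013 to 13124881 counts, and levels are CPM, counts relative to the library's scaled total, with SD over mice. Hepatocyte markers summed to 77758 to 112880 CPM over the libraries. The small nuclear RNA 7SK ran from 2097 to 7259 CPM. Its widest gap set apart only 2 libraries, both of 129S1/SvImJ on chow. A second cut was required to leave at least 2 libraries of each group on either side. It gave 10 libraries with a low and 14 with a high level, so both levels were present in each group by that rule. Counts of the adipocyte genes Adipoq, Lep and Plin1 stood out in C57BL/6J HFD replicate 5 (15, 40 and 19 counts) and 129S1/SvImJ chow replicate 1 (7, 1 and 3 counts). Gene positions are on GRCm38 (mm10), and the same mice enter several comparisons. Groups of 6 or 7 mice are given as lowest, median and highest, and the 5 mice of 129S1/SvImJ on chow by every value. In parentheses, a log2 fold change (HFD over chow, or 129S1/SvImJ over C57BL/6J), with its standard error after ±, is followed by the edgeR adjusted p.

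Col18a1 held most of the collagen RNA in every group. Per kilobase of transcript it averaged 306 CPM in 129S1/SvImJ on HFD, 370.0 on chow, 268 in C57BL/6J on HFD and 296 on chow. Its share of all collagen CPM (not per length) was 75.9%, 80.7%, 60.1% and 71.7% in the same order of groups. On the per-length scale, over all 24 mice, the next chains were the FACIT chain Col14a1 (17.6 CPM per kilobase), the fibrillar chains Col27a1 (14.3) and Col3a1 (11.9), and the basement membrane chains Col4a1 (9.48) and Col4a2 (6.56). Col5a3 (5.98), Col1a2 (5.65) and Col1a1 (4.85) followed. Among these neighbours the order was not the same in each group: Col3a1 averaged 24.6 CPM per kilobase in C57BL/6J on HFD, above Col14a1 (23.2), but 4.81 in 129S1/SvImJ on HFD, below Col14a1 (14.8). Without Col18a1, all chains together summed to 467 ± 59.7 CPM (SD, n = 6) in 129S1/SvImJ on HFD and 424 ± 51.2 (n = 5) on chow, and to 885 ± 344 (n = 7) in C57BL/6J on HFD and 562 ± 84.8 (n = 6) on chow.

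**Figure D1:**
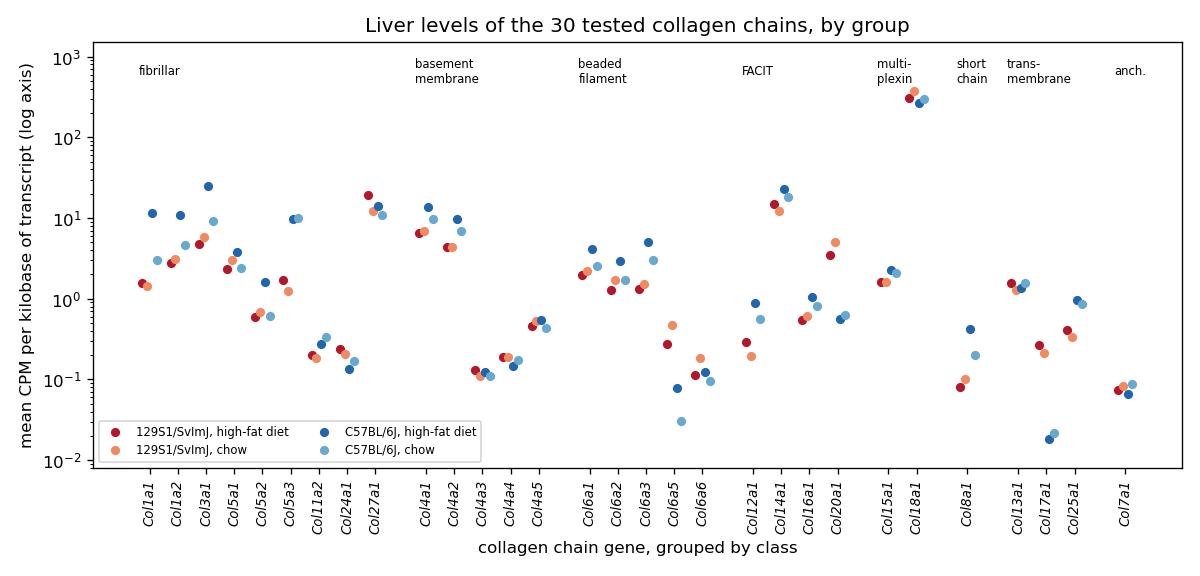
Mean level of each tested collagen chain in the 4 groups, in CPM per kilobase of transcript on a log axis, with chains grouped by class (anch., anchoring fibril). Col18a1 stands at 268 to 370 CPM per kilobase in every group, and the fibrillar chains Col1a1, Col1a2 and Col3a1 are highest in C57BL/6J on HFD.

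Another 14 chains were too low to test. The fibrillar chains Col2a1 and Col11a1, of cartilage, had 1 and 7 counts over all libraries, the FACIT chains Col9a1, Col9a2, Col9a3, Col19a1 and Col22a1 had 3, 4, 58, 1 and 16, and Col4a6 had 82. Col6a4 had 8 counts, Col8a2 105, Col23a1 106 and Col28a1 14. Col10a1, the collagen of growth-plate cartilage, and Col26a1 had 0 of 252911793 counts, which allows up to 0.0119 CPM (3 counts over all libraries, counting error only). The tested chains included 9 of 11 fibrillar, 5 of 6 basement membrane, 5 of 6 beaded filament, 4 of 9 FACIT, both multiplexin, 3 of 4 transmembrane and 1 of 3 short-chain chains, and Col7a1 of anchoring fibrils.

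On HFD, C57BL/6J livers held more RNA than on chow of the chains Col1a1, Col1a2 and Col3a1 (collagens I and III), of Col5a1 and Col5a2 (collagen V, without Col5a3) and of Col6a1 and Col6a2 (collagen VI, without Col6a3, Col6a5 and Col6a6). In 129S1/SvImJ none of these 7 passed the test. In C57BL/6J, 7 of the 30 tested chains rose and 0 fell (edgeR quasi-likelihood test, Benjamini-Hochberg adjusted p under 0.05), where 14.9% of all genes tested were called, 7.66% up and 7.20% down. The chains had a median of 0.37 on the log2 scale, against 0.01 for all genes. In 129S1/SvImJ, 1 chain fell and 0 rose, where 10.4% of genes were called, 5.41% up and 5.01% down, and the chains had a median of -0.09 (-0.00 over all genes). The diets' CPM did not overlap for 1 chain in 129S1/SvImJ (7.73% of all genes) and for 0 chains in C57BL/6J (3.89%). At an unadjusted p under 0.05 there were 13 chains in C57BL/6J and 4 in 129S1/SvImJ. The share of all genes at that p was not counted, so these counts have no background. In liver tissue, more cells of a type and more RNA per cell cannot be told apart.

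The strains differed in more chains than the diets did, as they also did over all genes tested. On HFD, 129S1/SvImJ was lower than C57BL/6J in 15 of the 30 chains and higher in 4, where 37.0% of all genes were called, 19.1% lower and 17.9% higher. Over the chains the median was -0.66 on the log2 scale, and over all genes 0.00. On chow it was lower in 5 and higher in 4, where 25.0% of genes were called, 12.5% lower and 12.6% higher, and the chains had a median of -0.21 (0.01 over all genes). The chow counts are thus near those of all genes. CPM of the strains did not overlap for 8 of the 30 chains on HFD and for 8 on chow, where 15.1% of all genes did not overlap in each. Between strains, 8 chains were called on both diets in the same direction. Among the chains higher in 129S1/SvImJ, Col17a1 and Col6a5 passed the filter on low counts only through that strain. This favours their calls and lack of overlap, and both are among these 8. Each of the 7 chains that rose with HFD in C57BL/6J was lower in 129S1/SvImJ on HFD. The diet and strain comparisons share the C57BL/6J HFD mice. In all, 20 of the 30 chains were called in at least 1 of these 4 comparisons, and 10 in none. The share of all genes was not counted for this, nor for calls on both diets, so these counts have no background.

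The test of the diet effects against each other called no chain. The difference between the diet effects, with that of C57BL/6J subtracted, was called for 0 of 30 chains by edgeR (0.296% of all genes were called), while 8 chains had an unadjusted p under 0.05 (share of all genes not counted). The chains with the smallest adjusted p were Col5a1 (-0.99 ± 0.29 SE, edgeR adjusted p = 0.111) and Col5a2 (-1.61 ± 0.50, 0.134). DESeq2 called these 2 chains (Col5a1 -1.002, adjusted p = 0.0308, and Col5a2 -1.63, 0.0388), and limma on the variance-stabilized values called 0. The median over the chains was -0.42. By edgeR, a difference in diet response between the strains is thus not shown for any chain.

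**Figure D2:**
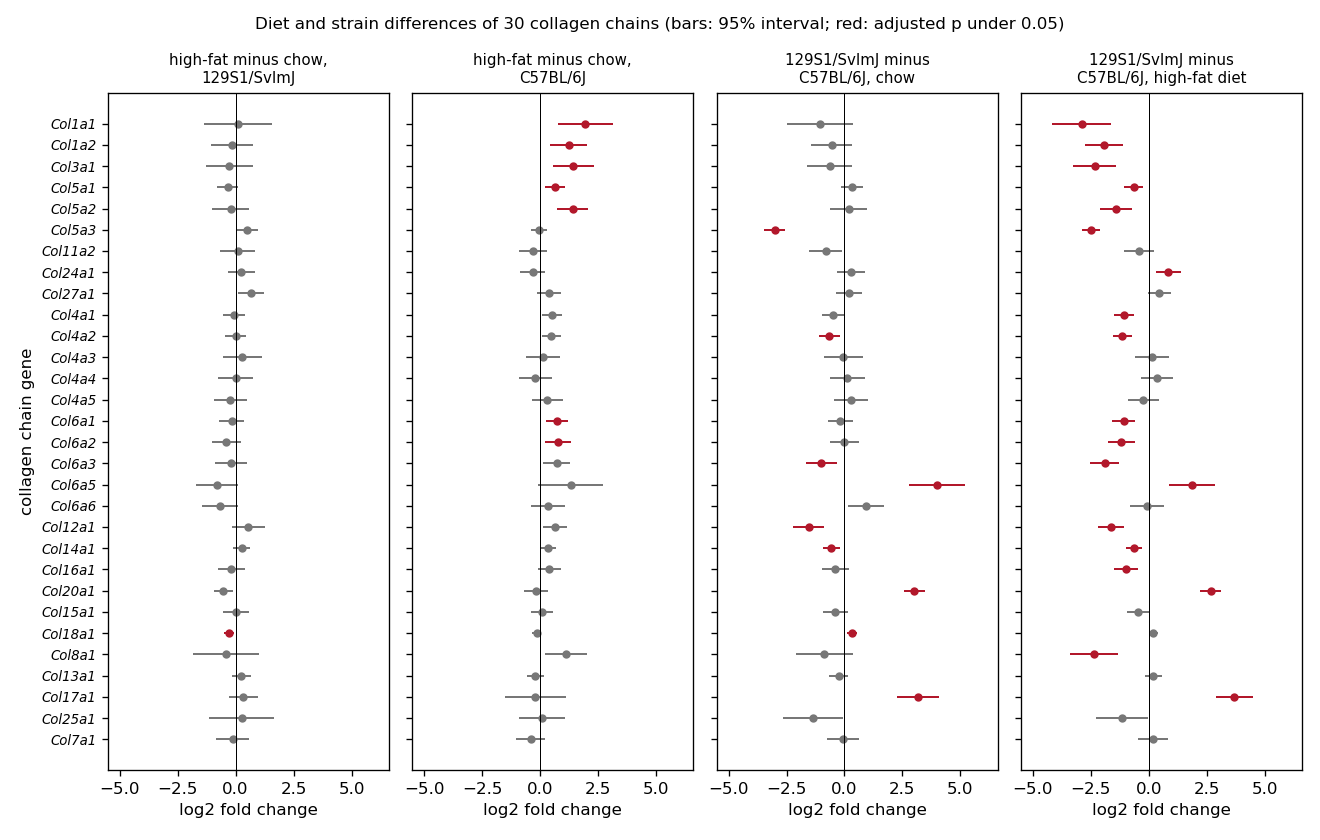
Log2 fold changes of the 30 tested chains, grouped by class from top to bottom, for HFD minus chow in each strain and for 129S1/SvImJ over C57BL/6J, by diet. Points are edgeR estimates, bars span their 95% intervals, and red marks adjusted p under 0.05: 1, 7, 9 and 19 chains from the left panel to the right.

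Among the fibrillar chains, Col1a1 and Col1a2 together make type I collagen. Col1a1 (ENSMUSG00000001506.10, chromosome 11, 94936224 to 94953042, 51 exons) read 9.85, 36.2 and 179 CPM in C57BL/6J on HFD and 7.10, 18.2 and 31.3 CPM on chow. Of the 7 HFD mice, 5 lay above every chow mouse and 2 within the chow range. The log2 fold change was 1.95 ± 0.59 (SE, edgeR adjusted p = 0.0289). In 129S1/SvImJ it read 4.99, 6.49 and 23.4 CPM on HFD and 3.37, 5.17, 5.38, 7.30 and 20.9 CPM on chow, with overlapping groups (0.11 ± 0.73, 0.951). A single 129S1/SvImJ mouse on each diet stood above the rest of its group. On HFD 129S1/SvImJ was lower than C57BL/6J (-2.90 ± 0.63, 0.00103), with 5 of 6 mice below every C57BL/6J mouse. On chow the log2 difference was -1.06 ± 0.70 (0.303) and did not pass the test.

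Col1a2 (ENSMUSG00000029661.16, chromosome 6, 4504814 to 4541544) read 18.6, 35.0 and 126 CPM in C57BL/6J on HFD and 14.4, 25.2 and 31.8 on chow (1.23 ± 0.38, edgeR adjusted p = 0.0347). In 129S1/SvImJ it read 10.7, 13.3 and 26.1 CPM on HFD and 11.3, 11.8, 15.7, 16.3 and 28.0 on chow (-0.16 ± 0.45, 0.876). Again 5 of 7 C57BL/6J mice on HFD lay above every chow mouse, and the 129S1/SvImJ groups overlapped. Col3a1 (ENSMUSG00000026043.18, chromosome 1, 45311538 to 45349706), which forms homotrimers that mix into type I fibrils and reticular fibres, read 39.9, 75.5 and 318 CPM in C57BL/6J on HFD and 24.3, 57.4 and 69.6 on chow (1.44 ± 0.43, 0.0282). In 129S1/SvImJ it read 18.1, 25.1 and 46.9 CPM on HFD and 21.8, 23.1, 26.9, 35.5 and 53.6 on chow (-0.26 ± 0.48, 0.793). On HFD 129S1/SvImJ was lower for Col1a2 (-1.95 ± 0.40, 0.000656) and for Col3a1 (-2.35 ± 0.45, 0.000354), with 5 of 6 mice below every C57BL/6J mouse for each chain. A microRNA gene, Gm47302, lies in the Col3a1 transcript on the same strand over 141 exonic bases.

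Col5a1 and Col5a2 encode chains of collagen V, which nucleates type I fibrils. Col5a2 (ENSMUSG00000026042.16, chromosome 1, 45374321 to 45503282) read 3.86, 8.42 and 22.5 CPM in C57BL/6J on HFD and 3.72, 4.00 and 4.44 on chow (1.40 ± 0.33, edgeR adjusted p = 0.00555). It was the chain in which 6 of 7 HFD mice lay above every chow mouse. Col5a1 (ENSMUSG00000026837.15, chromosome 2, 27886425 to 28039514) read 19.6, 28.0 and 54.4 CPM in C57BL/6J on HFD and 15.7, 19.2 and 24.7 on chow (0.65 ± 0.19, 0.0261). In 129S1/SvImJ, Col5a2 read 2.34, 3.95 and 5.67 CPM on HFD and 3.24, 3.28, 3.82, 6.07 and 6.31 on chow, and Col5a1 15.1, 19.9 and 25.1 on HFD and 21.4, 23.2, 25.5, 27.9 and 28.7 on chow. Neither passed the test there (-0.21 and -0.35 on the log2 scale, 0.79 and 0.334). On HFD 129S1/SvImJ was lower than C57BL/6J in Col5a2 (-1.43 ± 0.33, 0.00151) and Col5a1 (-0.66 ± 0.19, 0.00949), and the strains overlapped in both. Antisense transcripts share 99 and 113 exonic bases with Col5a1, and counting by strand is not given in the sources used here.

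**Figure D3:**
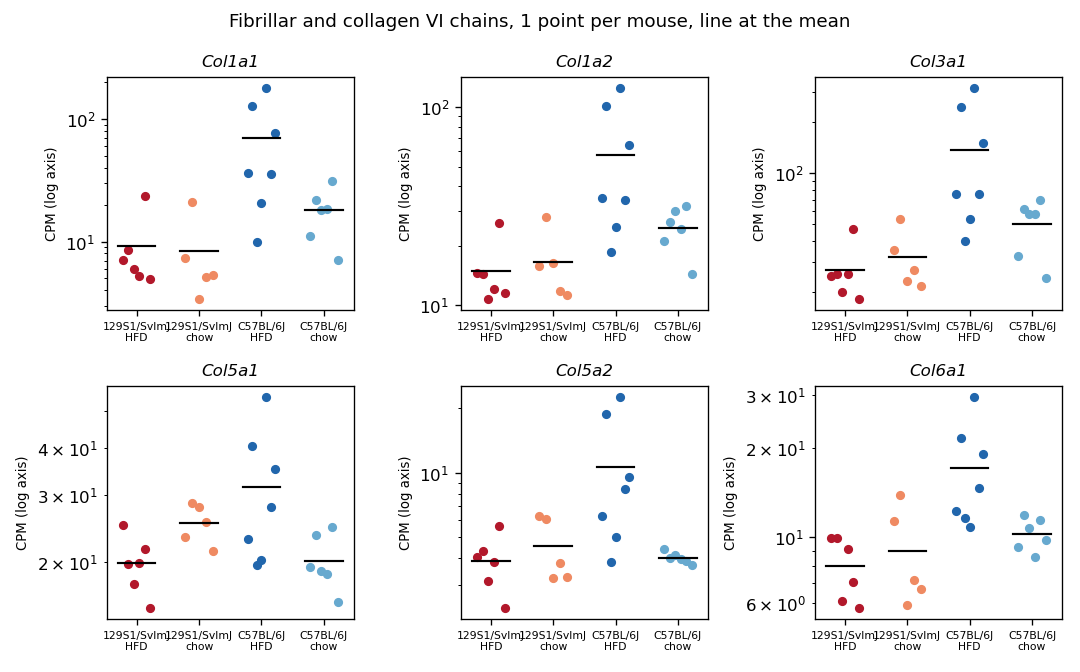
CPM of Col1a1, Col1a2, Col3a1, Col5a1, Col5a2 and Col6a1 in each mouse on a log axis, with the group mean as a line. In each panel 4 to 6 of the 7 C57BL/6J mice on HFD lie above every C57BL/6J chow mouse, and the rest overlap them.

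The C57BL/6J mice on HFD kept nearly the same order from chain to chain. Replicates 5, 2 and 7 were the highest, in that order, for each of the 7 chains that rose, and replicates 3 and 4 the lowest. Col1a1 differed 18.2-fold between the highest and lowest of these mice, against 4.41-fold among C57BL/6J mice on chow. Summed markers of portal fibroblasts and mesothelium were highest in the same 3 mice (37.6 CPM in replicate 5, 31.7 in replicate 7 and 25.9 in replicate 2) and lowest in replicates 4 and 3 (12.8 and 13.2). Stellate cell markers were highest in these mice too (719 CPM in replicate 5, 688 in replicate 7 and 662 in replicate 2) and lowest in replicate 3 (543), and cholangiocyte markers were highest in replicates 5 and 7 (157 and 77.6). Sinusoidal endothelial markers were also highest in replicates 2, 5 and 7 (670, 655 and 630) and lowest in replicate 3 (547). Smooth muscle and myofibroblast markers were instead highest in replicate 6 (37.9), above replicates 5, 2 and 7 (26.3, 23.4 and 20.3). The whole list of 11 portal fibroblast and mesothelial markers ran from 12.8 to 37.6 CPM in C57BL/6J on HFD and from 7.28 to 19.2 on chow. Of its 10 tested genes 2 rose, where 7.66% of all genes rose (Entpd2, 0.98, edgeR adjusted p = 0.0127, and Fbln2, 1.45, 0.0275). Of 13 tested stellate cell markers 0 rose and 0 fell (all genes 7.66% and 7.20%), and their sum ran from 543 to 719 CPM on HFD and 515 to 697 on chow. Smooth muscle and myofibroblast markers (0 of 4 called) summed to 13.9 to 37.9 and 9.13 to 15.9 CPM, and cholangiocyte markers (0 of 6) to 30.1 to 157 and 27.5 to 88.2 CPM. No marker of these lists was at 0 in a whole group, and the part of these cells in the collagen result was not tested.

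The C57BL/6J diet calls depended on single mice. In the 24 fits that each left out 1 library, 1 to 11 chains were called: 1 without HFD replicate 2 or 5 or chow replicate 6, 2 without chow replicate 1, 3 without chow replicate 4 or HFD replicate 7, 4 without chow replicate 3, 10 without HFD replicate 4 and 11 without HFD replicate 3. Col5a2 was called in all 24, with an adjusted p of at most 0.0145. Without both libraries with adipocyte transcripts, Col5a2 was the 1 chain called (1.10, edgeR adjusted p = 0.0126), and the other 6 had log2 fold changes of 0.46 to 1.51. Within the low 7SK libraries (2 mice on HFD, 3 on chow) the 7 chains had log2 fold changes of 0.43 to 1.79, within the high ones (5 and 3) 0.83 to 2.23, and 0 were called in either.

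Of the other fibrillar chains, Col5a3 showed the clearest strain difference and no called diet effect. Col5a3 (ENSMUSG00000004098.7, chromosome 9, 20770050 to 20815067), a collagen V chain of narrower tissue range, read 7.95, 10.4 and 13.8 CPM in 129S1/SvImJ on HFD and 45.2, 60.3 and 65.7 in C57BL/6J on HFD. On chow it read 2.70, 6.92, 8.14, 9.31 and 10.7 CPM in 129S1/SvImJ and 46.1, 66.5 and 68.7 in C57BL/6J. The strains did not overlap on either diet, and the log2 differences were -2.49 ± 0.18 on HFD (edgeR adjusted p = 1.52e-10) and -3.01 ± 0.21 on chow (9.51e-11). Its diet log2 fold changes were 0.48 (0.177) in 129S1/SvImJ and -0.04 (0.906) in C57BL/6J. Col24a1, a low fibrillar chain, read 0.989, 1.67 and 2.55 CPM in 129S1/SvImJ and 0.447, 1.06 and 1.26 in C57BL/6J on HFD, a log2 difference of 0.83 ± 0.25 (0.0102), and the strains overlapped. Col27a1, the most abundant fibrillar chain per length in 129S1/SvImJ, read 99.9, 153 and 207 CPM on HFD and 68.0, 84.3, 88.8, 98.8 and 128 on chow in that strain (0.66 ± 0.26, 0.12). In C57BL/6J it read 67.5, 94.2 and 184 on HFD and 55.2, 77.4 and 109.8 on chow (0.39 ± 0.24, 0.297). Neither diet difference nor either strain difference of Col27a1 passed the test in the main fit. Its strain difference on HFD passed without C57BL/6J HFD replicate 7 (0.63, 0.0295). Col11a2, at 0.341 to 2.83 CPM over all mice, passed none in the main fit. On chow the strains did not overlap in Col11a2 (-0.81 ± 0.34, 0.0808), and the difference passed when the 2 chow groups were fitted alone (-0.81, 0.0385).

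The type VI chains Col6a1, Col6a2 and Col6a3 build the beaded filaments that join cells to fibrils. In C57BL/6J, Col6a1 (ENSMUSG00000001119.7, chromosome 10, 76708792 to 76726168) read 10.8, 14.7 and 29.7 CPM on HFD and 8.61, 10.3 and 11.9 on chow (0.74 ± 0.22, edgeR adjusted p = 0.0276). Col6a2 (ENSMUSG00000020241.13, chromosome 10, 76595762 to 76623630) read 6.62, 12.1 and 21.4 on HFD and 5.98, 6.93 and 7.69 on chow (0.78 ± 0.26, 0.0439). For each of these chains 5 of 7 HFD mice lay above every chow mouse. Col6a3 (ENSMUSG00000048126.16, chromosome 1, 90765923 to 90843971) read 22.1, 40.8 and 82.9 on HFD and 20.3, 25.1 and 41.8 on chow and did not pass the test (0.72 ± 0.27, 0.0794), though DESeq2 called it (0.73, adjusted p = 0.0342). In 129S1/SvImJ, Col6a1 read 5.77, 8.10 and 9.97 CPM on HFD and 5.94, 6.69, 7.19, 11.4 and 13.9 on chow, and Col6a2 2.65, 5.595 and 6.54 on HFD and 4.46, 4.72, 5.53, 7.54 and 11.3 on chow. Both sets overlapped, with log2 fold changes of -0.17 and -0.39 (0.744 and 0.455).

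Between strains on HFD, 129S1/SvImJ had lower Col6a1 (-1.08 ± 0.23, edgeR adjusted p = 0.000645), Col6a2 (-1.18 ± 0.27, 0.00112) and Col6a3 (-1.92 ± 0.29, 2.35e-05), and the strains did not overlap in any of the 3. Col6a3 read 8.10, 12.1 and 15.98 CPM in 129S1/SvImJ on HFD. On chow it read 9.58, 10.1, 10.6, 12.6 and 25.1 CPM in 129S1/SvImJ, a log2 difference from C57BL/6J of -1.001 ± 0.32 (0.0246), and the strains overlapped through the highest 129S1/SvImJ mouse. This chow call ended without 129S1/SvImJ replicate 1 (0.0536), 3 (0.0627), 4 (0.065) or 5 (0.0632) or C57BL/6J replicate 5 (0.061), without the filter on low counts (0.0517), with 7SK at its widest gap as a term (-0.76, 0.154) and within either 7SK level (0.211 and 0.167). Col6a5 ran the other way. Col6a5 (ENSMUSG00000091345.9, chromosome 9, 105856078 to 105960643), a low chain of the same class, read 1.24, 2.45 and 3.78 CPM in 129S1/SvImJ and 0.302, 0.492 and 1.52 in C57BL/6J on HFD (1.86 ± 0.48, 0.00343). On chow it read 1.35, 1.69, 3.02, 6.68 and 9.42 CPM in 129S1/SvImJ and 0, 0.222 and 0.606 in C57BL/6J (3.99 ± 0.59, 1.04e-05), without overlap. Each C57BL/6J chow library held only 0 to 6 counts of Col6a5, so the size of this fold rests on few counts. Col6a5 passed the filter on low counts only through 129S1/SvImJ, which favours its calls. Its neighbour Col6a6 passed none of the tests in the main fit. On chow its strain difference (0.93 ± 0.38, 0.0699) passed with 7SK at its widest gap as a term (1.33, 0.0121). It also passed without 129S1/SvImJ chow replicate 4 (1.18, 0.0153) and without C57BL/6J HFD replicate 6 (0.93, 0.0476).

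**Figure D4:**
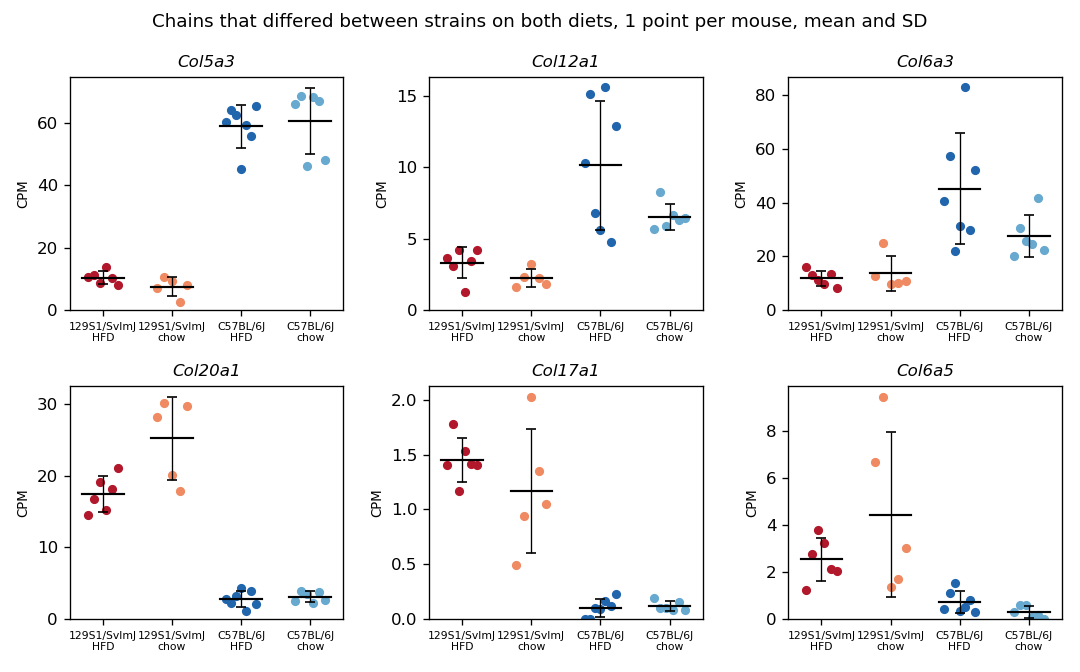
CPM of 6 chains called between strains on both diets, 1 point per mouse, with the mean and SD of each group. Col5a3, Col12a1 and Col6a3 are lower and Col20a1, Col17a1 and Col6a5 higher in 129S1/SvImJ, with overlap between the strains in Col6a3 on chow and in Col6a5 on HFD.

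The basement membrane chains Col4a1 and Col4a2, which pair in the common collagen IV trimer, were lower in 129S1/SvImJ on HFD. Col4a1 (ENSMUSG00000031502.11, chromosome 8, 11198423 to 11312826) read 34.9, 41.4 and 50.6 CPM in 129S1/SvImJ and 48.6, 84.9 and 156 in C57BL/6J on HFD (-1.08 ± 0.20, edgeR adjusted p = 0.000181). Col4a2 (ENSMUSG00000031503.13, chromosome 8, 11312805 to 11449287) read 20.7, 28.5 and 33.8 CPM in 129S1/SvImJ and 36.8, 61.8 and 100.03 in C57BL/6J (-1.15 ± 0.19, 5.6e-05). The strains did not overlap in Col4a2, and in Col4a1 4 of 6 129S1/SvImJ mice lay below every C57BL/6J mouse. On chow Col4a2 read 21.02, 25.2, 27.1, 33.3 and 34.3 CPM in 129S1/SvImJ and 31.4, 44.5 and 55.9 in C57BL/6J (-0.66 ± 0.21, 0.0229), a call that ended without 129S1/SvImJ replicate 1 (0.0676), 2 (0.0524) or 5 (0.0556), without the count filter (0.0537) and within the high 7SK level (-0.38, 0.624). Col4a1 read 39.8, 42.8, 44.5, 45.6 and 53.0 CPM in 129S1/SvImJ and 50.7, 68.4 and 70.6 in C57BL/6J on chow and did not pass (-0.49, 0.103). This Col4a1 difference did pass when the 2 chow groups were fitted alone (-0.49, 0.00206) and without C57BL/6J HFD replicate 5 (-0.49, 0.0459). With HFD in C57BL/6J the log2 fold changes were 0.53 ± 0.19 for Col4a1 (0.0715) and 0.49 ± 0.19 for Col4a2 (0.0794), short of the threshold. DESeq2 called both (adjusted p = 0.033 and 0.0454). The exons of the pair share 22 bases at their start. Col4a3, Col4a4 and Col4a5, chains of kidney and other specialised basement membranes, averaged at most 3.57 ± 1.957 CPM (SD, n = 7, Col4a5 in C57BL/6J on HFD) and passed no test.

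Among the FACIT chains, 3 were lower and 1 higher in 129S1/SvImJ on HFD. Col12a1, which decorates type I fibrils under load, read 1.28, 3.55 and 4.23 CPM in 129S1/SvImJ and 4.74, 10.3 and 15.6 in C57BL/6J on HFD (-1.64 ± 0.27, edgeR adjusted p = 2.74e-05). Its chow values were 1.61, 1.84, 2.25, 2.30 and 3.24 CPM in 129S1/SvImJ and 5.69, 6.36 and 8.26 in C57BL/6J (-1.54 ± 0.32, 0.000744). The strains did not overlap on either diet. Col14a1 (ENSMUSG00000022371.16, chromosome 15, 55307750 to 55520803), the most abundant FACIT chain here, read 56.7, 85.7 and 97.6 CPM in 129S1/SvImJ and 85.0, 129 and 168 in C57BL/6J on HFD (-0.65 ± 0.15, 0.00178). On chow it read 57.4, 61.6, 69.8, 77.9 and 83.5 CPM in 129S1/SvImJ and 75.6, 108.7 and 118 in C57BL/6J (-0.57 ± 0.17, 0.0156), and the strains overlapped on both diets. Col16a1 read 1.80, 2.76 and 4.06 CPM in 129S1/SvImJ and 2.74, 5.58 and 8.20 in C57BL/6J on HFD (-0.98 ± 0.24, 0.00237), with overlap. On chow its difference did not pass (-0.39, 0.328).

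Col20a1 was the FACIT chain that was higher in 129S1/SvImJ. Col20a1 (ENSMUSG00000016356.18, chromosome 2, 180986535 to 181018363) read 14.5, 17.4 and 21.04 CPM in 129S1/SvImJ and 1.07, 2.75 and 4.29 in C57BL/6J on HFD (2.66 ± 0.20, edgeR adjusted p = 1.05e-10). Its chow values were 17.9, 20.1, 28.2, 29.7 and 30.1 CPM in 129S1/SvImJ and 2.23, 3.08 and 3.93 in C57BL/6J (3.02 ± 0.22, 4.12e-11). The strains were far apart on both diets. With HFD in 129S1/SvImJ its log2 fold change was -0.54 ± 0.19 (0.0688), which missed the threshold and passed it when the 2 groups were fitted alone (-0.54, 0.02). Another annotated transcript, BX649560.1, shares 79 exonic bases with Col20a1 on the same strand, so some of these counts could belong to it.

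Col18a1 was the 1 chain called for diet in 129S1/SvImJ. Col18a1 (ENSMUSG00000001435.15, chromosome 10, 77052178 to 77166548) read 1360.5, 1507 and 1519.9 CPM in 129S1/SvImJ on HFD and 1609, 1715, 1799, 1838 and 1902 on chow, with no overlap. It was lower on HFD (-0.27 ± 0.08 on the log2 scale, edgeR adjusted p = 0.0323), and the call ended without chow replicate 1 (0.0832), 2 (0.0797) or 3 (0.057) or HFD replicate 3 (0.0609) or 5 (0.0703), without both adipocyte libraries (0.0519) and within either 7SK level (0.178 and 0.471). In C57BL/6J it read 1072, 1262 and 1558 CPM on HFD and 1305, 1399.9 and 1552 on chow (-0.14 ± 0.08, 0.222). On chow it was higher in 129S1/SvImJ than in C57BL/6J (0.32 ± 0.08, 0.00475), without overlap, and on HFD the difference was 0.19 ± 0.08 (0.0527), which DESeq2 called (0.18, adjusted p = 0.0297). Hepatocyte markers, tested as a list of 8, summed to 78098 to 99593 CPM in 129S1/SvImJ on HFD and 93114 to 110006 on chow, and to 77758 to 95109 in C57BL/6J on HFD and 105438 to 112880 on chow. Of the 8, 1 fell with HFD in 129S1/SvImJ (all genes 5.01%) and 5 fell in C57BL/6J (all genes 7.20%), and their part in the Col18a1 result was not tested. The other multiplexin, Col15a1, of vessel basement membranes, read 5.13, 8.09 and 12.1 CPM in 129S1/SvImJ and 7.29, 10.2 and 17.2 in C57BL/6J on HFD and passed no test in the main fit (-0.47 ± 0.23, 0.107). That strain difference passed with a replicate block (-0.49, 0.0486) and without 129S1/SvImJ HFD replicate 5 (-0.61, 0.0438).

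The remaining classes were low in liver. Col17a1, a membrane-spanning collagen known from the attachment of skin epithelium, read 1.17, 1.41 and 1.78 CPM in 129S1/SvImJ and 0, 0.102 and 0.227 in C57BL/6J on HFD (3.69 ± 0.39, edgeR adjusted p = 1.9e-08). Its chow values were 0.495, 0.942, 1.05, 1.35 and 2.02 CPM in 129S1/SvImJ and 0.0828, 0.0997 and 0.193 in C57BL/6J (3.16 ± 0.44, 2.53e-06). The strains did not overlap on either diet, but each C57BL/6J library held only 0 to 3 counts of it, so the fold depends on the prior count and is no measure of size. Col17a1 passed the filter on low counts only through 129S1/SvImJ, which favours its calls and this lack of overlap. Col8a1, a network collagen of vessel walls, read 0.0899, 0.399 and 0.773 CPM in 129S1/SvImJ and 0.521, 1.66 and 4.37 in C57BL/6J on HFD (-2.37 ± 0.51, 0.00063), with overlap. Each 129S1/SvImJ HFD library held only 1 to 10 counts of Col8a1, so the size of this fold rests on few counts. Col8a1 passed the filter on low counts only through C57BL/6J, which favours this call. Its diet difference in C57BL/6J was 1.10 ± 0.44 (0.0896). Col25a1, a neuronal membrane collagen, read 0.508, 1.02 and 10.8 CPM in C57BL/6J on HFD and 1.57, 2.00 and 3.11 on chow, and the highest value was HFD replicate 6. With all mice its log2 fold change was 0.08 ± 0.49 (0.939), and without replicate 6 it was -0.95 (0.016). On chow Col25a1 read 0.675, 0.899, 0.919, 0.942 and 0.989 CPM in 129S1/SvImJ, and the strains did not overlap. That strain difference missed the threshold (-1.34 ± 0.64, 0.13). It passed when the 2 chow groups were fitted alone (-1.34, 0.00126) and without C57BL/6J HFD replicate 6 (-1.34, 0.00233). Col13a1 and Col7a1 passed no test.

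Chains that share a trimer or fibril varied together among mice of a group. Pairs of chains from different classes were not compared, so this is not shown to be particular to partners. In C57BL/6J on HFD, replicates 5, 2 and 7 were the 3 highest for Col4a1 and Col6a3 as well as for Col1a1. After the group mean was removed from log2(CPM + 0.5), 5 pairs of chains were compared over the 24 mice, and permutation p-values (two-sided, 100000 resamples within groups) were adjusted over the 5. Pearson's r and Spearman's rho were 0.95 and 0.85 for Col1a1 with Col1a2, 0.96 and 0.93 for Col1a1 with Col3a1, 0.91 and 0.90 for Col4a1 with Col4a2, and 0.92 and 0.93 for Col6a1 with Col6a2. For these 4 pairs the adjusted p of r was 1.25e-05 (raw p = 1e-05, the smallest the resamples can give) and that of rho 2.5e-05. For Col5a1 with Col5a2, r was 0.83 (adjusted p = 0.00015) and rho 0.70 (0.00161). Without the 2 mice farthest from the median of the first chain, r was 0.92, 0.95, 0.88 and 0.86 for the 4 pairs and 0.69 for Col5a1 with Col5a2. Without the C57BL/6J HFD mice (n = 17), r was 0.90, 0.94, 0.83 and 0.86, and it fell to 0.42 for Col5a1 with Col5a2 (adjusted p = 0.102), so this last relation rested on that group.

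**Figure D5:**
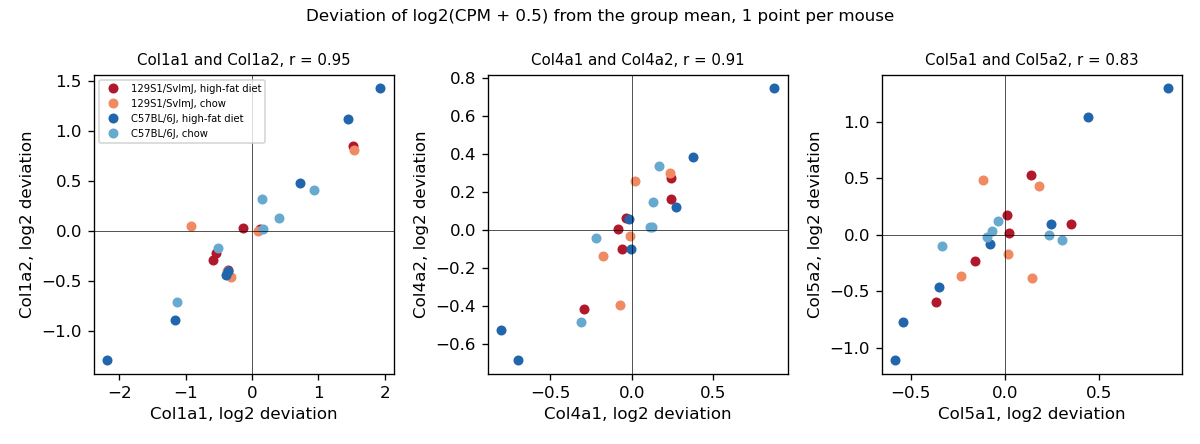
Deviation of each mouse from its group mean, in log2(CPM + 0.5), for Col1a1 and Col1a2, Col4a1 and Col4a2, and Col5a1 and Col5a2, coloured by group. The points follow a line in the first panels (r = 0.95 and 0.91), and in the Col5a1 and Col5a2 panel (r = 0.83) the mice at both ends are C57BL/6J on HFD.

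Type I collagen is made mostly of heterotrimers of Col1a1 and Col1a2. The ratio of Col1a1 to Col1a2 per length was 0.508 ± 0.157 (SD, n = 6) in 129S1/SvImJ on HFD, 0.421 ± 0.174 (n = 5) on chow, 0.940 ± 0.266 (n = 7) in C57BL/6J on HFD and 0.629 ± 0.171 (n = 6) on chow. Col4a1 to Col4a2 was 1.504 ± 0.0981 and 1.59 ± 0.239 in 129S1/SvImJ on HFD and chow, and 1.402 ± 0.137 and 1.401 ± 0.147 in C57BL/6J on HFD and chow. Col6a1 to Col6a2 was 1.60 ± 0.340 and 1.32 ± 0.197 in 129S1/SvImJ on HFD and chow, and 1.45 ± 0.160 and 1.45 ± 0.147 in C57BL/6J on HFD and chow. In exact permutation tests of the log2 ratios (two-sided, 12 tests over 3 ratios and 4 comparisons), 0 passed after adjustment. The smallest adjusted p was 0.0979, for Col1a1 to Col1a2 in 129S1/SvImJ against C57BL/6J on HFD (exact raw p = 0.00816), and for HFD in C57BL/6J it was 0.234. The ratios were chosen after the levels were seen, and they use the length of 1 principal transcript per gene.

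Genes that fold and modify collagen numbered 17 tested of 18. With HFD in C57BL/6J 5 of the 17 rose and 1 fell, where 7.66% of all genes rose and 7.20% fell, and their median was 0.24 on the log2 scale (0.01 over all genes). Serpinh1, the collagen chaperone HSP47, averaged 24.2 ± 7.56 CPM on HFD and 14.1 ± 1.11 on chow in C57BL/6J (SD, n = 7 and 6, log2 fold change 0.78, edgeR adjusted p = 0.00145). The lysyl hydroxylase gene Plod1 (0.46, 0.000102) and the collagen galactosyltransferase genes Colgalt1 (0.33, 0.000799) and Colgalt2 (0.996, 0.00901) rose too, with Plod2 (0.85, 0.0385), and the prolyl isomerase gene Ppib fell (-0.32, 0.00588). In 129S1/SvImJ 2 rose with HFD, Plod1 (0.43, 0.000905) and Colgalt2 (1.04, 0.00273), and 0 fell, where 5.41% of all genes rose and 5.01% fell. Between strains on HFD, 7 of the 17 were lower and 2 higher in 129S1/SvImJ (all genes 19.1% and 17.9%). Serpinh1 averaged 8.26 ± 1.45 CPM in 129S1/SvImJ and 24.2 ± 7.56 in C57BL/6J (SD, n = 6 and 7, -1.54, 6.16e-08), while Colgalt2 was higher in 129S1/SvImJ (2.05, 1.3e-08). On chow 3 were lower (Plod1, Colgalt1 and Serpinh1) and Colgalt2 was higher (all genes 12.5% and 12.6%).

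For propeptide removal and cross-linking, 10 of 13 genes were tested. With HFD in C57BL/6J 1 rose (all genes 7.66%), the lysyl oxidase-like gene Loxl2 (0.86, edgeR adjusted p = 0.0385), and in 129S1/SvImJ 0 of 10 rose or fell. Between strains on HFD, 6 were lower and 1 higher in 129S1/SvImJ (all genes 19.1% and 17.9%). The lower genes included Adamts2, which trims the amino-terminal propeptide (-1.70, 9.43e-07), Pcolce, an enhancer of carboxy-terminal trimming (-1.09, 4.09e-05), Loxl1 (-2.03, 0.000189) and Loxl2 (-1.29, 0.0011), and the higher one was Bmp1 (0.35, 0.0223), which removes the carboxy-terminal propeptide. On chow 3 were lower in 129S1/SvImJ (all genes 12.5%): Loxl4 (-1.26, 0.000751), Adamts2 (-0.80, 0.015) and Pcolce2 (-1.01, 0.029).

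Of 11 tested genes of fibril-associated proteoglycans and glycoproteins, 7 were lower and 1 higher in 129S1/SvImJ on HFD (all genes 19.1% and 17.9%), and their median was -1.23 on the log2 scale. The matricellular genes Tnc (-2.41, edgeR adjusted p = 4.95e-05), Thbs1 (-2.13, 5.58e-05) and Thbs2 (-1.56, 0.000241) were lower, and fibronectin, Fn1, was higher (0.32, 0.00131). Tnc averaged 4.92 ± 2.87 CPM on HFD and 1.94 ± 0.823 on chow in C57BL/6J (SD, n = 7 and 6), and it and periostin, Postn, were the 2 that rose with HFD there (1.34, 0.0147, and 0.91, 0.0248), where 7.66% of all genes rose. In 129S1/SvImJ 0 of the 11 were called for diet (all genes 10.4%). Among 13 basement membrane partners of collagen IV (laminins, nidogens, perlecan and peroxidasin), 7 were lower in 129S1/SvImJ on HFD and 3 on chow (all genes 19.1% and 12.5%). For diet 0 were called in either strain (all genes 14.9% in C57BL/6J and 10.4% in 129S1/SvImJ). Nid2, a nidogen, averaged 4.20 ± 0.357 CPM in 129S1/SvImJ and 9.39 ± 3.11 in C57BL/6J on HFD (SD, n = 6 and 7, -1.15, 1.84e-05), and was lower on chow too (-0.91, 0.000977).

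TGF-beta signalling is known to drive collagen transcription. Of its 16 listed genes, 2 rose and 3 fell with HFD in C57BL/6J, where 7.66% of all genes rose and 7.20% fell. The receptor gene Tgfbr2 (0.46, edgeR adjusted p = 0.0157) and the ligand gene Tgfb1 (0.42, 0.0475) rose, and Tgfbr1 (-0.35, 0.000216), Smad3 (-0.48, 0.00901) and Smad4 (-0.22, 0.0111) fell. In 129S1/SvImJ 2 fell (all genes 5.01%), Smad3 (-0.50, 0.0154) and the inhibitory Smad7 (-1.13, 0.000907). Between strains, 7 were lower and 2 higher in 129S1/SvImJ on HFD (all genes 19.1% and 17.9%), and 2 lower and 2 higher on chow (12.5% and 12.6%), so the chow counts are near those of all genes. Tgfbr2 averaged 19.7 ± 3.13 CPM in 129S1/SvImJ and 80.2 ± 18.7 in C57BL/6J on HFD (SD, n = 6 and 7, -2.02, 1.67e-11). On chow it averaged 17.5 ± 2.88 and 58.4 ± 6.38 CPM in the same strains (SD, n = 5 and 6, -1.73, 2.55e-09).

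Of 10 collagen receptor genes 7 were tested. With HFD 0 of them were called in C57BL/6J (all genes 14.9%) and 1 in 129S1/SvImJ (all genes 10.4%), the inhibitory leukocyte receptor gene Lair1 (1.21, edgeR adjusted p = 0.0163). On HFD 4 were lower in 129S1/SvImJ, among them the discoidin domain receptor genes Ddr1 (-1.01, 0.00783) and Ddr2 (-0.71, 0.000109), and 2 were higher (all genes 19.1% and 17.9%). On chow Lair1 (-1.88, 5.23e-05) and Itga10 (-1.52, 0.00368) were lower (all genes 12.5%). Of 7 tested genes of collagen breakdown and its inhibitors, 1 was called with diet in C57BL/6J and 2 in 129S1/SvImJ (all genes 14.9% and 10.4%). Mmp19 rose with HFD in C57BL/6J (0.29, 0.0283) and in 129S1/SvImJ (0.60, 0.000155), where Mmp14, a membrane-bound collagenase, fell (-0.96, 2.53e-05). Between strains on HFD 4 were lower in 129S1/SvImJ, including Mmp14 (-0.98, 5.31e-07) and Mmp2 (-1.38, 0.000769), and 2 higher (all genes 19.1% and 17.9%). On chow 0 of 7 were called (all genes 25.0%).

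Markers of other cells are given beside the strain differences of the chains. Of all genes, 19.1% were lower and 17.9% higher in 129S1/SvImJ on HFD, and 12.5% and 12.6% on chow. On HFD, cholangiocyte markers summed to 13.9 to 27.2 CPM in 129S1/SvImJ and 30.1 to 157 in C57BL/6J, and 4 of 6 tested were lower in 129S1/SvImJ. Kupffer cell markers summed to 107 to 239 CPM in 129S1/SvImJ and 197 to 493 in C57BL/6J, with 6 of 9 lower, and portal fibroblast and mesothelial markers to 9.97 to 23.7 and 12.8 to 37.6 CPM, with 3 of 10 lower. Stellate cell markers summed to 644 to 699 CPM in 129S1/SvImJ and 543 to 719 in C57BL/6J, with 2 of 13 higher (Rgs5, 0.72, edgeR adjusted p = 0.000132, and Reln, 0.28, 0.022) and 0 lower. Sinusoidal endothelial markers summed to 652 to 757 CPM in 129S1/SvImJ and 547 to 670.1 in C57BL/6J, with 3 of 11 higher and 4 lower. Smooth muscle markers summed to 5.45 to 16.5 CPM in 129S1/SvImJ and 13.9 to 37.9 in C57BL/6J, with 1 of 4 lower (Tagln, -1.64, 0.0019). Of 6 tested adipocyte markers, from a list of 10, 5 were lower in 129S1/SvImJ on HFD, and 4 rose with HFD in C57BL/6J (all genes 7.66%). The list summed to 2339 to 4249 CPM in 129S1/SvImJ and 2342 to 4038 in C57BL/6J on HFD. Among C57BL/6J HFD mice its sum was lowest in replicate 5, where Adipoq, Lep and Plin1 counts stood out. The list is thus no measure of fat cells here, and what its calls reflect was not tested. On chow all 9 Kupffer cell markers were lower in 129S1/SvImJ, as were 2 stellate, 5 sinusoidal, 1 cholangiocyte and 2 adipocyte markers, while 1 stellate and 2 sinusoidal markers were higher. Portal fibroblast and smooth muscle markers gave 0 calls there. With HFD in 129S1/SvImJ, 1 stellate marker (Lrat, 0.74, 0.0259) and 1 Kupffer cell marker rose (all genes 5.41%), and 0 markers of the portal fibroblast, smooth muscle, sinusoidal, cholangiocyte and adipocyte lists were called. The part of these cells in the strain differences was not tested.

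The strain calls on HFD held without any 1 library, and those on chow in part. All 19 chains called on HFD were called in each of the 24 fits without 1 library (19 to 20 chains in all, adjusted p at most 0.0448 for the 19) and without both libraries with adipocyte transcripts 19 were called. Within the low 7SK libraries (2 mice of each strain) 5 chains were called, Col5a3, Col20a1, Col17a1, Col4a2 and Col12a1, and within the high ones 17. On chow, 7 of the 9 called chains were called in each of the 24 fits, with 4 called within the high 7SK libraries (Col5a3, Col20a1, Col17a1 and Col6a5) and 7 within the low ones.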

How the data were processed

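Raw counts per gene were deposited by the authors for each of 24 libraries (24 of 24 single files equal the matrix). A deposited matrix of variance-stabilized values on a log2 scale served 1 alternative. Per the submitters' processing notes, the tools were Trimmomatic 0.36, Bowtie2 2.2.3, STAR 2.5.4b and DESeq2 1.26.0 with mm10; the role of each, with annotation release and strand setting, is not given in the sources used here. Per the labels' protocols, RNA was DNase-treated and depleted of ribosomal RNA, and the library kit keeps strand. mm10 is the C57BL/6J genome, so reads of 129S1/SvImJ that differ from it could align less often, which lowers that strain's counts. Identifiers were matched to GENCODE M21 (53582 of 53677); the 95 unmatched held 0.00747% of counts.

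Counts were analysed with edgeR 4.0.16 in R 4.3.3: filterByExpr, trimmed-mean scaling and robust quasi-likelihood fits with 1 mean per group over all 24 libraries, with a prior count of 0.125. Tests were two-sided, p-values were adjusted by Benjamini-Hochberg over 14533 genes, and a gene was called under 0.05. Standard errors were derived from the quasi-likelihood F and the log2 fold change. Levels per kilobase used the length of the principal transcript. Alternatives used limma 3.58.1 and DESeq2 1.42.0. The permutation test of correlations was tried on simulated draws with a known correlation. Each library is 1 mouse, so p-values measure the spread between mice, and 61 pairs within groups differed by more than counting allows (chi-square over degrees of freedom, 5.77 to 80.5). Replicate numbers did not pair mice across groups. The sample titles carry a further code that divides each group into sets of mice, none shared between groups. What this code stands for is not given. Differences between the sets were not tested and cannot be fully told apart from those of strain and diet.

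The collagen chains, the 15 gene lists and the tests were chosen with earlier results of these data known, so they are no independent evidence. Every tested chain was described or counted; per-mouse values were given for chains called in at least 1 comparison and for 10 fixed chains, and up to 4 called members with the smallest p were named per list and comparison, plus Tgfb1, Plod2, Ppib, Bmp1 and markers beside results, named after their values were seen.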

Additional observations from a re-analysis of the deposited data

Results flagged for a closer look

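In groups of 4 to 10 mice, single values that stood far from the rest of their group (Dixon's test at the 95% level) were sought for the 30 tested chains in the 4 groups. There were 10 among 120 combinations of chain and group, and chance gives about 1 in 20.

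129S1/SvImJ HFD replicate 5 was highest for Col1a1 (23.4 CPM, the others 4.99 to 8.50), Col1a2 (26.1, the others 10.7 to 14.6) and Col3a1 (46.9, the others 18.1 to 25.6). 129S1/SvImJ chow replicate 2 was highest for Col1a1 (20.9, the others 3.37 to 7.30), Col6a3 (25.1, the others 9.58 to 12.6) and Col8a1 (1.36, the others 0.131 to 0.450). In that library smooth muscle and myofibroblast markers summed to 71.7 CPM, the highest of its group, and their part in these values was not tested. C57BL/6J HFD replicate 6 was highest for Col25a1 (10.8, the others 0.508 to 2.31) and Col4a3 (2.85, the others 0.305 to 1.23). C57BL/6J chow replicate 2 was highest for Col12a1 (8.26, the others 5.69 to 6.62). 129S1/SvImJ chow replicate 3 was lowest for Col25a1 (0.675, the others 0.899 to 0.989).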

How the results depend on the processing

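For HFD in C57BL/6J, the 7 chains became 3 by limma on variance-stabilized values, 1 without the count filter, 2 with only its groups fitted, 1 without both libraries with adipocyte transcripts and 0 within either 7SK level; without 1 library they were 1 to 11. For HFD in 129S1/SvImJ, the 1 chain became 2 with only its groups fitted, 3 with 7SK (split at its widest gap, which sets 2 libraries apart) as a term, 0 without the adipocyte libraries and 0 within either 7SK level, and 0 to 2 without 1 library. Strain on HFD gave 5 chains within the low 7SK level (19 to 20 without 1 library) and strain on chow 4 within the high one (7 to 11). The test of the diet effects against each other gave 2 chains by DESeq2 (0 to 0 without 1 library). Splits by 7SK level were chosen after seeing the data. Over all genes, calls at the low and the high level of 7SK were 305 and 283 for HFD in 129S1/SvImJ, 312 and 784 in C57BL/6J, and 2008 and 1338 for strain on chow; strain on HFD gave 1549 within the low one. Leaving out 1 library gave 937 to 1671 genes, 1627 to 2502, 3153 to 3814 and 4831 to 5554 for the same comparisons, and 5 to 170 for the diet effects against each other (43 with all). That last count was 170 with 7SK at its widest gap as a term, 297 by DESeq2, 2 without the adipocyte libraries, and 1 at the low 7SK level and 0 at the high one. A replicate block gave 4 chains for HFD in C57BL/6J (Col1a2, Col3a1 and Col6a2 lost) and 17 genes for the diet effects against each other, and moved no other count by over 1.5 times; equal numbers did not pair mice (correlations of -0.21 to 0.28 over 22 pairs, 4 best with their own number). Col25a1 for HFD in C57BL/6J ran from -0.95 (reversed, without HFD replicate 6) to 0.26 without 1 library, and r of Col5a1 with Col5a2 was 0.42 without C57BL/6J on HFD (permutation p = 0.102). The cause of these shifts was not tested. Depth limits the chains near 3 counts per library.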
